A study of Mus musculus with 48 samples.

Results

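The comparison described here set the cortex of Cyfip2 heterozygous mice against that of wild-type (WT) mice at postnatal week 7 (PWK 7). It took 8 of the 48 bulk RNA sequencing libraries of the series, 4 of Cyfip2+/- mice and 4 of WT mice, chosen by their labels alone, and it covered all 18428 genes of the deposited table. The series holds the cortex and hippocampus of both genotypes at weeks 1, 7 and 14, with 4 mice in each of the 12 groups. Cyfip2+/- mice carry 1 inactivated Cyfip2 allele serve as a model of CYFIP2 haploinsufficiency, and were on the C57BL/6N background, as were the WT mice. Each library came from the whole frontal cortex of both hemispheres of a separate mouse, collected in the afternoon on a daily light-dark cycle. The labels give no sex, and Ddx3y, a gene of the Y chromosome, was present at normalized counts of 1384 to 1635 in all 8 libraries.

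CYFIP2 is a subunit of the WAVE regulatory complex, in which it is held with NCKAP1, an ABI protein, BRK1 and a WAVE protein. The complex keeps WAVE inactive until the small GTPase RAC1 binds, after which WAVE switches on the ARP2/3 complex and branched actin filaments grow, a process that shapes dendritic spines. CYFIP2 and its close relative CYFIP1 also bind FMRP, a repressor of translation lost in fragile X syndrome, and missense variants of CYFIP2 cause a developmental and epileptic encephalopathy. The question of the comparison was which genes and pathways differ in the adult cortex when 1 Cyfip2 allele is lost, and which do not.

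The normalized counts of the 8 libraries summed to 32.1 M to 33.7 M (M for mega), and the step between low values put the depth near 35.7 M to 36.9 M reads a library. Cyfip2+/- libraries were the shallower ones on balance, with a median of 36.2 M against 36.6 M (two-sided exact permutation test, p = 0.0571). Correlations between libraries over genes were 0.988 to 0.991 both within and between genotypes. The tissue matched its label, since markers of upper-layer cortical neurons summed to 30882 to 33755 in the cortex libraries and to 14261 to 15928 in the hippocampus of the same age. Markers of hippocampal neurons summed to 13882 to 15269 in the cortex and 43318 to 47162 in the hippocampus.

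The Cyfip2 transcript fell to 67.4% of the WT level in Cyfip2+/- cortex. Cyfip2 (GRCm38 chromosome 11, 46193850 to 46312859, minus strand) had normalized counts of 21679, 21490, 21567 and 21531 in the Cyfip2+/- libraries and of 32668, 30231, 32460 and 32714 in the WT libraries. Every Cyfip2+/- library lay below every WT library, and the Cyfip2+/- values were closer together, at 21566 ± 81.2 (SD, n = 4) against 32018 ± 1197 (SD, n = 4). The fitted difference on the log2(normalized count + 1) scale was -0.57 (SE 0.03, 95% confidence interval -0.64 to -0.49), with an adjusted p of 3.69e-05 by limma. The interval as a ratio ran from 0.640- to 0.710-fold. An exact permutation test of this single value gave p = 0.0286, the smallest that 4 against 4 libraries allow.

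**Figure D1:**
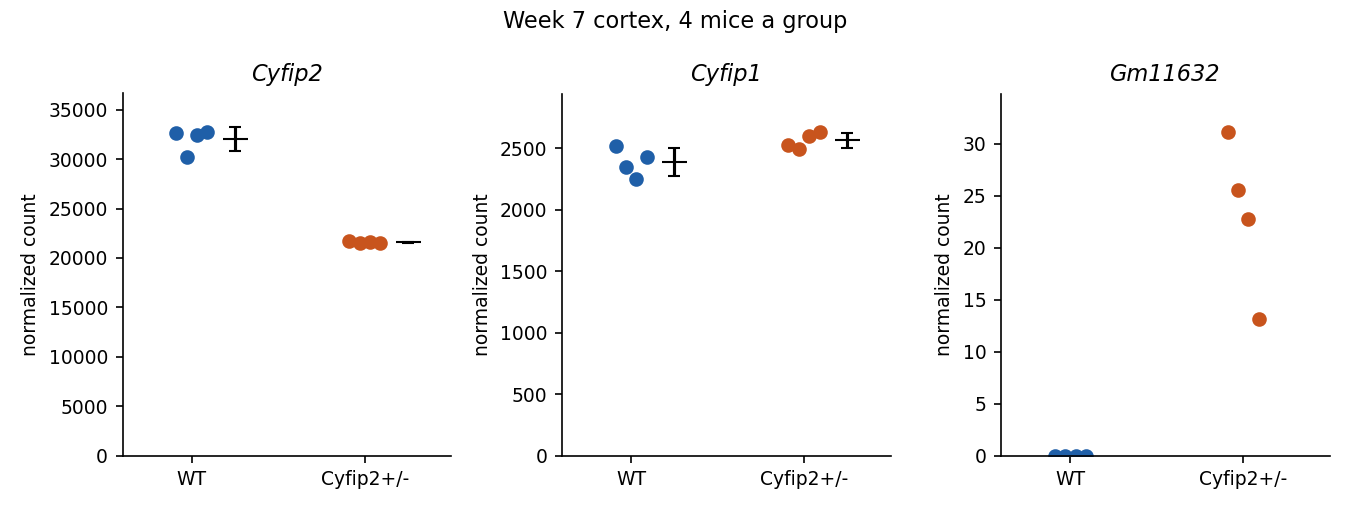
Normalized counts of Cyfip2, Cyfip1 and Gm11632 in each of the 8 week 7 cortex libraries, with points for libraries and bars for the mean ± SD (no mean for Gm11632, which was listed at 0 in all 4 WT libraries). The genotypes are apart for Cyfip2 and Gm11632, and overlap for Cyfip1.

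For most other subunits of the WAVE complex the data allow only small differences. Cyfip1, which can take the place of CYFIP2 in the complex, was at 2531, 2499, 2598 and 2631 in Cyfip2+/- libraries and at 2519, 2346, 2254 and 2429 in WT libraries. Its Cyfip2+/- mean of 2565 ± 60.4 was 0.10 above the WT mean of 2387 ± 113 on the log2 scale (SD, n = 4 each, interval 0.01 to 0.20), the groups overlapped, and limma's adjusted p was 0.962. Nckap1, the partner that CYFIP proteins bind most closely, differed by -0.06 on the log2 scale (interval -0.14 to 0.01), Abi1 by -0.08 (-0.17 to 0.01) and Wasf1, which encodes WAVE1, by 0.00 (-0.08 to 0.09). Of the 10 WAVE complex genes tested besides Cyfip2, 9 had a 95% interval wholly within 1.3-fold of no difference, and none was called. The remaining one, Abi3, which is mainly a microglial gene, was measured at lower counts and had a wider interval, from -0.19 to 0.60 around 0.21.

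Across the transcriptome, 3 of 16857 genes tested were differentially expressed genes (DEGs, adjusted p below 0.05), a share of 0.0178%. Of these, 2 were higher in Cyfip2+/- cortex (0.0119%) and Cyfip2 itself was the 1 lower gene (0.00593%). At an unadjusted p below 0.05, 873 genes (5.18%) passed, 395 higher (2.34%) and 478 lower (2.84%), and the share of true nulls estimated from the p values was 98.7%. In 513 genes (3.04%) the 4 Cyfip2+/- and the 4 WT values did not overlap, 232 of them higher (1.38%) and 281 lower (1.67%). The median log2 difference over all genes was -0.01 and the quartiles were -0.07 and 0.06, so the middle of the distribution sat close to 0.

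Confidence intervals give the size of difference that the 8 libraries still allow. In 10993 genes (65.2%) the 95% interval lay wholly within 1.3-fold in either direction. With tighter or looser bounds of 1.2- and 1.5-fold the numbers were 8474 (50.3%) and 13365 (79.3%). The share rose with the level of expression, from 2.88% of the 4165 genes with a mean under 100 to 74.0% of the 6457 genes between 100 and 1000 and 97.8% of the 6235 genes at 1000 or more. For weakly expressed genes the data therefore allow differences over 1.3-fold in either direction, and a missing call there does not show equal levels.

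**Figure D2:**
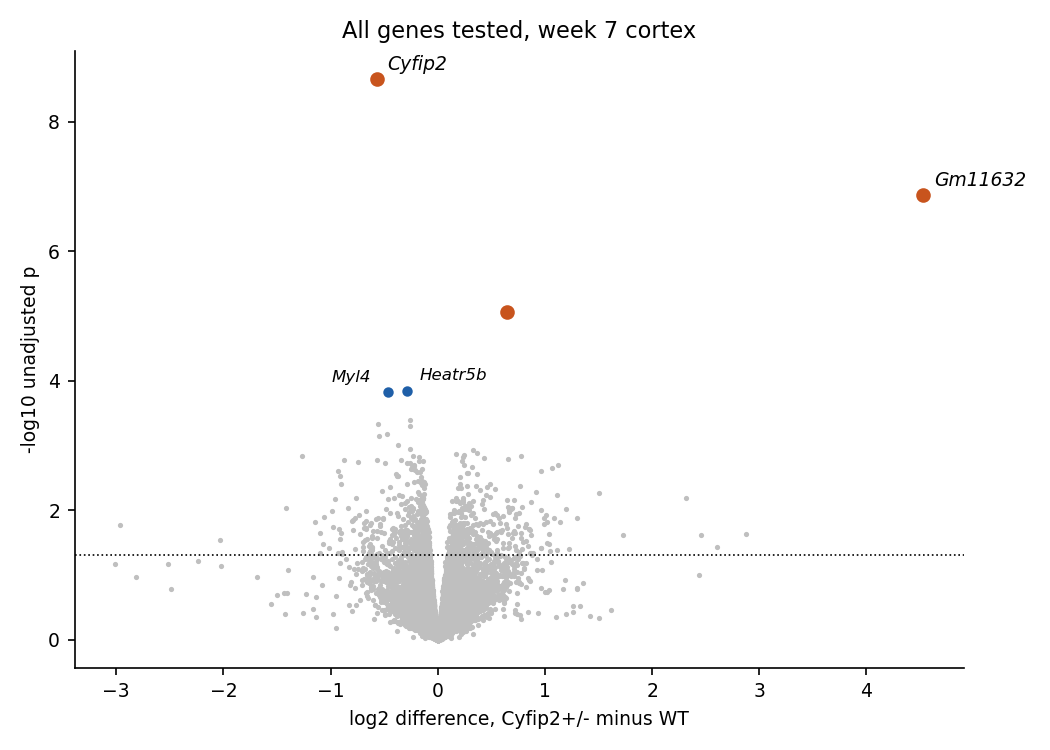
Log2 difference between Cyfip2+/- and WT (x axis) against the -log10 of limma's unadjusted probability (y axis) for the genes tested, with the 3 DEGs in orange, Heatr5b and Myl4 in blue and a dotted line at the unadjusted threshold. Cyfip2 and the other 2 DEGs stand above the cloud, which is centred near 0.

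Among the higher DEGs, Gm11632 is an uncharacterized processed transcript on chromosome 11 (98084457 to 98085424, minus strand). It was at 31.1, 25.5, 22.8 and 13.1 in the Cyfip2+/- libraries and listed at 0 in all 4 WT libraries (adjusted p = 1.13e-03 by limma). Gm11632 reached the minimum for testing, at least 10 in at least 4 libraries, only through the Cyfip2+/- group. Its entry into the test and its call are therefore not independent. With all 48 libraries in 1 model its adjusted p was 0.809 by limma. Zero is a common value for this gene, which was at 0 in 31 of the 48 libraries of the series and in 27 of the 40 outside this comparison. In the hippocampus at week 7, Cyfip2+/- values ran from 0 to 44.9 (median 14.0) and WT values from 0 to 24.7 (median 20.3), so the groups overlapped there.

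Gm11632 cannot be measured apart from its host gene with certainty. Both of its exons, of 620 and 54 bases, lie within an untranslated region of Fbxl20, a subunit of an E3 ubiquitin ligase, on the same strand. Of the 644 stretches of 31 bases in its transcript, 615 (95.5%) also occur in Fbxl20 transcripts and 29 do not, so transcript counting could assign the same reads to either gene. Fbxl20 itself was at 2264 ± 51.0 in Cyfip2+/- and 2280 ± 101 in WT cortex (SD, n = 4 each), a log2 difference of -0.01 (interval -0.11 to 0.09). For Cyfip2, none of the 7127 stretches of this length occurs in another gene.

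Behind the DEGs came genes whose values did not overlap but which missed the adjusted threshold. They were picked as the 12 higher and 12 lower protein-coding genes with the smallest p among those that did not overlap and had a mean of at least 100, so the separation itself is part of their choice. Myl4, the embryonic and atrial essential myosin light chain, was at 911, 739, 678 and 756 in Cyfip2+/- and at 1016, 1139, 1030 and 1055 in WT libraries. The Cyfip2+/- mean was 72.8% of WT, with a log2 difference of -0.47 (interval -0.65 to -0.28) and an adjusted p of 0.507 by limma. Heatr5b, a protein linked to endosomal trafficking, differed by -0.28 (-0.39 to -0.17) with the same adjusted p. Tnnc1, slow skeletal and cardiac troponin C, was at 552, 494, 410 and 449 against 662, 617, 769 and 604, a difference of -0.48 (-0.70 to -0.25). Both Myl4 and Tnnc1 are thus muscle-type contractile genes measured in cortical tissue, and both were lowest in Cyfip2+/- library 3.

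Among the remaining lower genes, all at an adjusted p of 0.899 by limma, were Nefm, the medium neurofilament subunit of axons, at -0.26 on the log2 scale, and Pllp, the myelin protein plasmolipin, at -0.23. Ctsh, the lysosomal protease cathepsin H, stood at -0.55, Rab23, a small GTPase of hedgehog signalling, at -0.37, and Lypd6, a membrane-anchored modulator of nicotinic receptors, at -0.26. Fkbpl stood at -0.55, Arfgef1, an exchange factor for ARF GTPases at the Golgi, at -0.18, and Xpot, the tRNA exporter, at -0.26. In Xpot, 22.7% of the stretches of 31 bases also occur in other genes, so its reads may be shared. Transcripts on the opposite strand hold 47.9% of such stretches of Pllp and 19.0% of those of Nefm, which matters only if the counting did not use strand.

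The higher genes of the same rule included Gfap, the intermediate filament of astrocytes, at 3571, 3640, 4162 and 3528 in Cyfip2+/- and at 3122, 3356, 2874 and 3207 in WT libraries. Its log2 difference was 0.25 (interval 0.11 to 0.38, adjusted p = 0.899 by limma). Vwf, von Willebrand factor of endothelial cells, stood at 0.43 and Naaa, a lysosomal amidase of N-acylethanolamines, at 0.25. Dnase2a, the acid nuclease of lysosomes, stood at 0.65, Eef2k, the kinase that slows translation elongation, at 0.31, and Plcd3, a phospholipase C, at 0.33. Slc16a11, a monocarboxylate transporter family member, stood at 0.37 and Slc29a1, the nucleoside transporter ENT1, at 0.28. For Dnase2a, 29.8% of stretches of 31 bases lie in transcripts of the opposite strand. Ppfia3, the presynaptic scaffold liprin alpha 3, stood at 0.17, Dlg5, a junctional scaffold, at 0.22, and Washc1, the subunit of the WASH complex that activates ARP2/3 on endosomes, at 0.24.

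**Figure D3:**
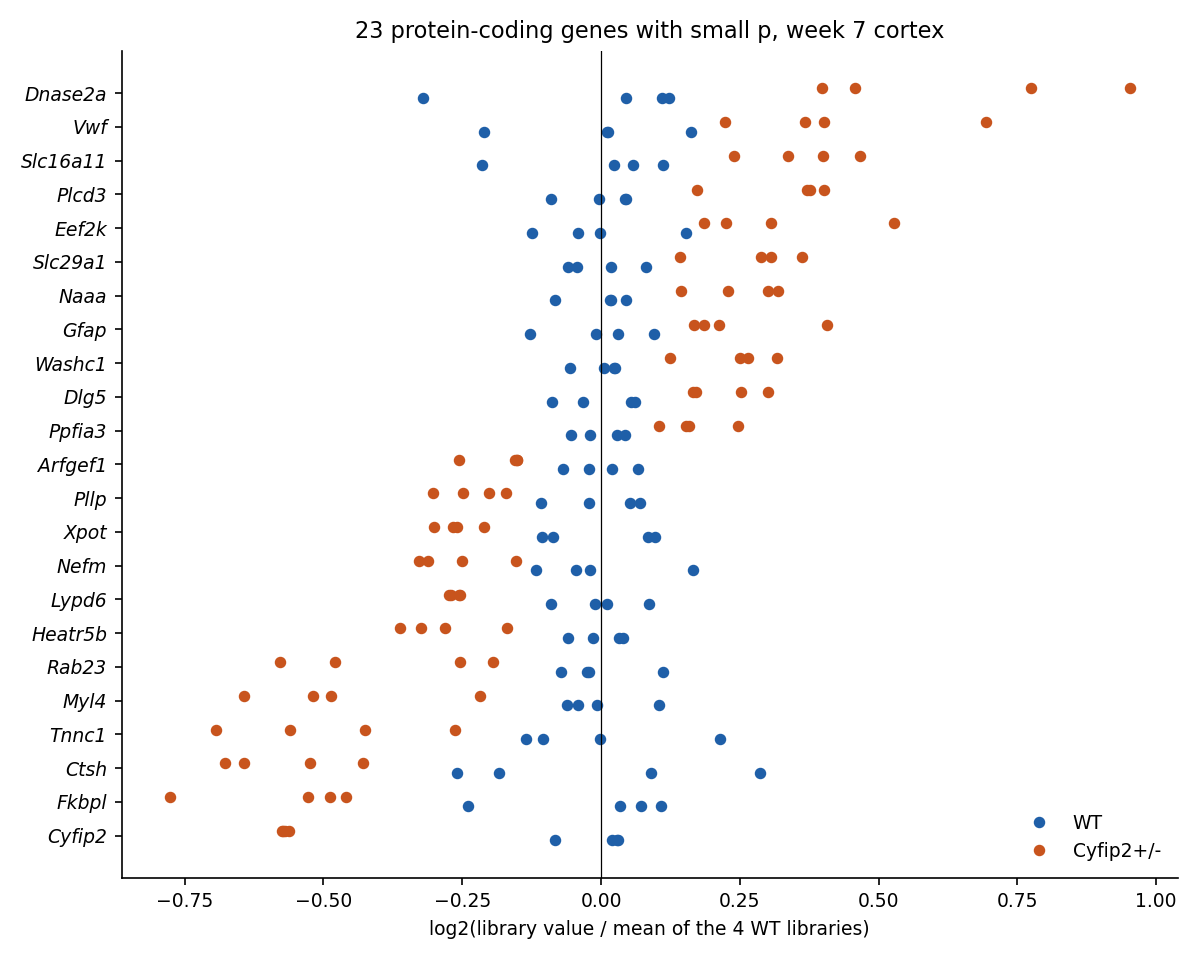
Log2 ratio of each week 7 cortex library to the mean of the 4 WT libraries (x axis) for genes from the 12 lower and 12 higher chosen for not overlapping, with 1 point for each library. Cyfip2 has the tightest Cyfip2+/- points, and the genes were selected for the gap between the genotypes that the plot shows.

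Genes on chromosome 11 close to Cyfip2 were looked at by position, with the lower coordinate of a gene taken as its start on either strand. Of 62 protein-coding genes that start within 5 Mb of Cyfip2, 59 were tested, none was called, 5 were lower and 1 higher at an unadjusted p below 0.05, against 2.84% and 2.34% of all genes, and the median log2 difference was -0.02. The 10 tested within 1000 kb, a limit set after the values were seen, were all below 0, with a median of -0.31 and a range from -0.61 to -0.02. Beyond that distance, 23 of 49 were below 0 and 26 above, with a median of 0.01. Of all genes tested, 53.4% were below 0 and 46.6% above.

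The nearest neighbours held the 4 of these 10 genes with an unadjusted p below 0.05. Nipal4, a magnesium transporter, has its lower coordinate 45.7 kb from that of Cyfip2. It was at 107, 115, 112 and 118 in Cyfip2+/- and at 149, 153, 154 and 137 in WT libraries. The groups did not overlap and the log2 difference was -0.39 (adjusted p = 0.903 by limma). Adam19, a membrane metalloprotease, was at 1364, 1334, 1080 and 1028 against 1674, 1514, 1664 and 1355. Its difference of -0.37 had an adjusted p of 0.903 by limma, and its groups overlapped through 1 WT library at 1355.

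Fndc9, a fibronectin type III domain gene, lies within the span of Cyfip2 on the opposite strand, with 0 exonic bases in common. It was at 69.2, 68.9, 47.0 and 34.8 in Cyfip2+/- and at 98.6, 78.6, 93.0 and 60.4 in WT libraries, a log2 difference of -0.61 with overlapping groups. Lsm11, of the histone mRNA processing complex, stood at -0.33, and Med7, a Mediator subunit, at -0.15. Values of the same neighbours in other groups of mice varied. At weeks 1, 7 and 14, Nipal4 stood at -0.84, -0.39 and -0.13 in the cortex and at -0.60, -0.32 and -0.17 in the hippocampus, below 0 in all 6 comparisons. Adam19 stood at 0.01, -0.37 and -0.36 in the cortex and at 0.11, -0.15 and -0.14 in the hippocampus.

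**Figure D4:**
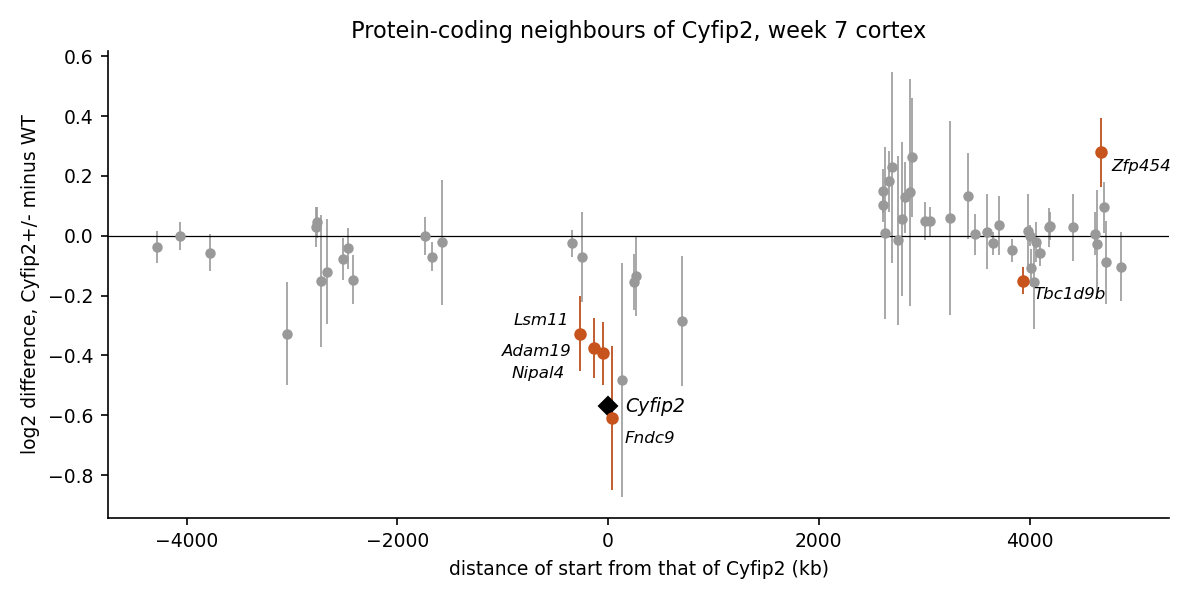
Log2 difference between Cyfip2+/- and WT cortex at week 7 (y axis, error bars SE) for tested protein-coding genes within 5 Mb of Cyfip2, by distance of their start (lower coordinate on either strand) from that of Cyfip2 (x axis). The diamond is Cyfip2, orange marks an unadjusted p below 0.05, and the 10 genes within 1000 kb all lie below 0.

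Functions were described with 36 gene lists, 22 of pathways and 14 of cell type markers, holding 833 genes, of which 825 were in the table and 816 were tested, with Cyfip2 left out. None of the 816 was called. At an unadjusted p below 0.05, 76 members passed (9.31%, against 5.18% of all genes), 16 higher and 60 lower. The 95% interval lay within 1.3-fold in 668 (81.9%, against 65.2%), and the list members are on the whole more highly expressed genes. List medians ran from -0.39 to 0.32. The mean level did not overlap between genotypes in 1 list that was higher and 2 lists that were lower in Cyfip2+/-. Of all single genes, 3.04% did not overlap.

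Several functions showed no member whose interval reached past 1.3-fold. This was so for all 30 actin regulators, all 36 regulators of RNA splicing, all 31 proteasome subunits, all 30 presynaptic genes, all 23 genes of inhibitory synapses and all 56 nuclear-encoded respiratory chain genes, beside 97.8% of all genes with a mean of 1000 or more. In the actin list, downstream of CYFIP2, the median was -0.03 and Actb, cytoplasmic beta actin, was at 28918 ± 260 against 29431 ± 820 (SD, n = 4 each). The ARP2/3 subunits Actr3 and Arpc2 stood at -0.11 and -0.09 on the log2 scale. They were the only 2 of 30 at an unadjusted p below 0.05, beside 5.18% of all genes.

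Splicing regulators had log2 differences from -0.08 to 0.08, and no member at an unadjusted p below 0.05, beside 5.18% of all genes. Of the 22 genes related to FMRP, 21 were within 1.3-fold, and Fmr1 itself stood at -0.02 (interval -0.12 to 0.07). Among 76 ribosomal protein genes, 74 were within the bound and 64 were above 0, with a median of 0.03. The proteasome list had a median of -0.01 and its largest member by level, Psmd2, a subunit of the regulatory particle, stood at 0.01 (-0.07 to 0.09).

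Synaptic and excitability genes were also narrow. In the excitatory postsynaptic list, 29 of 30 were within 1.3-fold, the median was -0.06 and 25 were below 0. Camk2a, the abundant kinase of dendritic spines, was at 127330 ± 4113 against 132447 ± 4766 (SD, n = 4 each), a log2 difference of -0.06 (interval -0.14 to 0.03). The members with the smallest p were Cacng3, an auxiliary subunit of AMPA receptors, at -0.15, Iqsec2, an ARF exchange factor of the postsynaptic density, at -0.09 and Lrrtm2, a synaptic adhesion protein, at -0.18. Snap25, of the vesicle fusion machinery, stood at -0.04 (-0.14 to 0.05), and Gphn, the inhibitory scaffold gephyrin, at -0.15 (-0.28 to -0.01).

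Ion channels and the genes of other epileptic encephalopathies had medians of -0.03 and -0.02, with 33 of 34 and 34 of 35 members within 1.3-fold. No ion channel gene and 1 of the 35 encephalopathy genes had an unadjusted p below 0.05, beside 5.18% of all genes. That 1 was higher.

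The neuronal cytoskeleton list lay slightly lower. Of 28 genes tested, 27 were within 1.3-fold and 24 were below 0, against 53.4% of all genes, and the median was -0.06. At an unadjusted p below 0.05, 6 were lower and 1 higher, against 2.84% and 2.34% of all genes. Nefm was at 9035, 8091, 8001 and 8442 in Cyfip2+/- and at 11266, 9739, 9904 and 9265 in WT libraries. Its light and heavy partners Nefl and Nefh stood at -0.16 and -0.17. The mean log2 level of the list ran from 14.08 to 14.13 in Cyfip2+/- and from 14.14 to 14.24 in WT libraries. The groups did not overlap, by a narrow gap, and this was 1 of 2 lower lists among the 36 without overlap. WT library 1 was the highest for Nefm, Nefl and Nefh. The list median was 0.07 in the cortex at week 1 and -0.07 at week 14.

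Activity-regulated immediate early genes had the lowest median of the 36 lists. None of the 21 tested had an interval within 1.3-fold, 19 were below 0, and the median was -0.39. At an unadjusted p below 0.05, 6 were lower and 1 higher, against 2.84% and 2.34% of all genes. Npas4, a transcription factor induced by neuronal activity, was at 847, 1299, 639 and 789 in Cyfip2+/- and at 861, 1633, 1552 and 1929 in WT libraries. The difference was -0.73 on the log2 scale (interval -1.27 to -0.19), with WT library 1 inside the Cyfip2+/- range.

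Other members of this list lay on both sides of 0, though 19 of the 21 were below it. None of the 21 separated the genotypes, beside 3.04% of all genes. Dusp6, a phosphatase of ERK kinases, stood at -0.38, Egr1 at -0.37 and Fosb at -0.52, whereas Jun, an AP-1 subunit, stood at 0.24. The mean level of the list overlapped between genotypes, at 9.97 to 10.74 against 10.39 to 11.20, and leaving out 1 library gave medians from -0.56 to -0.26. In the other 5 comparisons of the series, the median of the same list was -0.33 and -0.16 in the cortex at weeks 1 and 14 and -0.18, -0.12 and -0.15 in the hippocampus at weeks 1, 7 and 14.

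Energy metabolism lists lay mostly below 0, by small amounts that varied with the processing. With other scalings, filters and models, the glycolysis median ran from -0.04 to 0.01. The median ran from -0.04 to -0.02 for the nuclear-encoded respiratory chain and from -0.13 to -0.01 for mitochondrial-encoded genes. The nuclear-encoded respiratory chain had a median of -0.04, with 47 of 56 below 0 and 5 lower at an unadjusted p below 0.05, beside 2.84% of all genes, among them Cox7b, a subunit of cytochrome oxidase, at -0.14. Glycolysis had a median of -0.04, with 16 of 21 below 0 and 5 lower at an unadjusted p below 0.05. Hk2, an inducible hexokinase, was at 161, 142, 153 and 135 against 231, 173, 177 and 232, a log2 difference of -0.45 with no overlap, while the abundant Gapdh stood at -0.08. The 13 genes of the mitochondrial genome had a median of -0.07, with 12 below 0 and 2 lower at an unadjusted p below 0.05, and their level was highest in Cyfip2+/- library 4 (15.86) and WT library 4 (15.84).

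The circadian clock list had a median of -0.04 and 14 of 18 within 1.3-fold. It had no member at an unadjusted p below 0.05, beside 5.18% of all genes. Its mean level was 11.16 in Cyfip2+/- library 4 and 11.25 in WT library 4 and 10.91 to 10.99 in the other 6. The same libraries, 1 of each genotype, thus stood apart on this list, and without both of them 1 gene, Cyfip2, was a DEG.

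Genes of cholesterol synthesis had a median of -0.02, with 23 of 24 within 1.3-fold. Hsd17b7, an enzyme of the pathway, was at 834, 834, 806 and 871 in Cyfip2+/- and at 928, 999, 938 and 923 in WT libraries, a log2 difference of -0.18 with no overlap. In all, 3 of 24 were lower and 1 higher at an unadjusted p below 0.05, against 2.84% and 2.34% of all genes. The lipid list had a median of 0.01, with Plin3, a lipid droplet coat protein, at 0.30. Protein folding stress genes had a median of -0.05 and 1 of 25 lower, Atf3, a stress-induced factor at low counts. Neuropeptide genes had a median of -0.06, and 14 of 22 were within 1.3-fold.

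Interferon and inflammation genes formed the only list of the 36 whose mean level was higher in Cyfip2+/- without overlap, at 7.53 to 7.60 against 7.22 to 7.52. The gap was narrow, with Cyfip2+/- library 3 lowest at 7.529 and WT library 4 highest at 7.517. The median was 0.10 and 18 of 25 tested were above 0. At an unadjusted p below 0.05, 2 were higher, beside 2.34% of all genes. Lcn2, a secreted protein of reactive glia and neutrophils, was at 16.2, 31.9, 212 and 27.7 in Cyfip2+/- and at 10.9, 17.2, 3.62 and 4.62 in WT libraries. Cyfip2+/- library 3 was far above the rest for Lcn2, and the groups overlapped. That value enters the mean level of library 3, and the gap between the genotypes was not tested without Lcn2. H2-D1, a class I histocompatibility gene, stood at 0.25. Genes of blood also had higher values, and their part in this list was not tested. All 6 blood genes were above 0 with a median of 0.32, and their sum ran from 7292 to 12187 in Cyfip2+/- and from 6460 to 8720 in WT libraries. The adult beta globin Hbb-bs stood at 0.32 and Hbb-bt at 0.39.

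**Figure D5:**
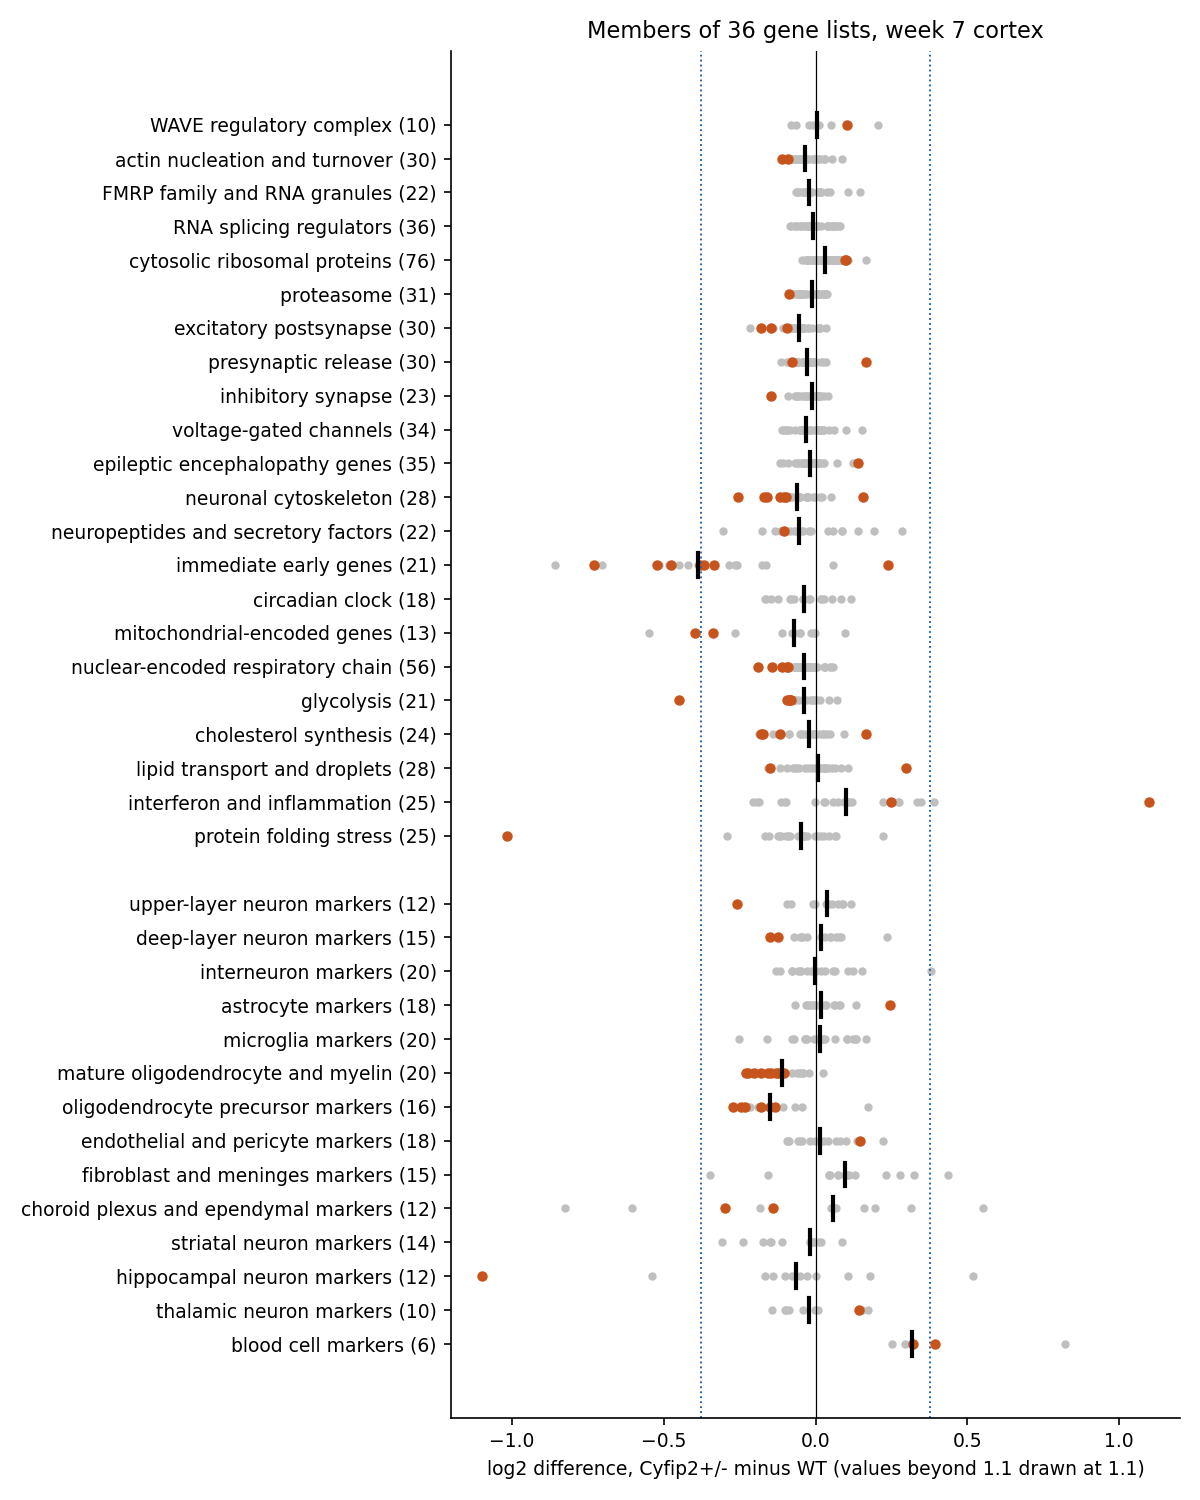
Log2 difference between Cyfip2+/- and WT cortex (x axis) for each tested member of the 36 gene lists (1 row for each list), with orange for an unadjusted p below 0.05, black bars for list medians and dotted lines at 1.3-fold. Splicing and proteasome genes lie in a narrow band at 0, and immediate early genes run from -0.86 for Arc to 0.24 for Jun.

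Markers of cell types described the makeup of the tissue, in which fewer cells of a type and less RNA per cell cannot be told apart. Markers of mature oligodendrocytes and myelin had a median of -0.11, and 19 of 20 were below 0. At an unadjusted p below 0.05, 10 of the 20 were lower, beside 2.84% of all genes, and 18 had an interval within 1.3-fold. Ermn, an actin-binding protein of oligodendrocytes, was at 1076, 1136, 1169 and 1237 in Cyfip2+/- and at 1399, 1275, 1323 and 1394 in WT libraries. The groups did not overlap for Ermn, and the log2 difference was -0.22 (interval -0.35 to -0.10, adjusted p = 0.899 by limma).

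Mbp, myelin basic protein, stood at -0.15, Car2, a carbonic anhydrase, at -0.18 and Myrf, the transcription factor that drives myelination, at -0.23. Mog, a surface protein of myelin, stood at -0.02. The mean level of the list overlapped between genotypes, at 11.61 to 11.73 against 11.73 to 11.83, and leaving out 1 library gave medians from -0.13 to -0.09. In the cortex the median of this list was -0.62 at week 1 and 0.15 at week 14, and in the hippocampus it was -0.81, -0.03 and -0.06 at weeks 1, 7 and 14.

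Oligodendrocyte precursor markers had a median of -0.15, with 15 of 16 below 0. Of the 16, 8 had an interval within 1.3-fold, beside 65.2% of all genes. At an unadjusted p below 0.05, 6 were lower, beside 2.84% of all genes. Gpr17, a receptor of cells committed to the lineage, was at 2283, 2548, 1962 and 2262 in Cyfip2+/- and at 3116, 2838, 2460 and 2532 in WT libraries, a difference of -0.27 with overlapping groups. Sox10, a lineage transcription factor, stood at -0.15, Pdgfra, the growth factor receptor of precursors, at -0.18, and Vcan at 0.17. The mean level of the list did not overlap, at 10.004 to 10.080 against 10.123 to 10.252, and its median was -0.10 at week 1 and -0.05 at week 14 in the cortex. In the hippocampus it was -0.11, -0.11 and -0.03 at weeks 1, 7 and 14, with 15 of 16 below 0 at week 7 as well.

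Other cell types were close to the middle of all genes. Microglial markers had a median of 0.02 with no member of 20 at an unadjusted p below 0.05, beside 5.18% of all genes. Csf1r, the receptor that microglia need to survive, stood at -0.03 (interval -0.23 to 0.17). Astrocyte markers had a median of 0.02 with 17 of 18 within 1.3-fold, and the abundant glutamate transporter Slc1a2 stood at 0.02 (-0.09 to 0.13). Interneuron markers had a median of 0.00 and none of 20 at an unadjusted p below 0.05, beside the same 5.18%. Upper-layer and deep-layer neuron markers had medians of 0.04 and 0.02. Lamp5 stood at -0.26 among the former, and Pcp4, a calmodulin regulator, at -0.12 and Etv1 at -0.15 among the latter. Endothelial markers had a median of 0.01.

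Markers of neighbouring regions measured the dissection. Striatal markers had a median of -0.02 and none of 14 at an unadjusted p below 0.05, beside 5.18% of all genes. Only 4 of the 14 had an interval within 1.3-fold. The mean level of striatal markers ran from 8.29 to 9.42 in Cyfip2+/- and from 8.38 to 9.42 in WT libraries. The high libraries were 3 and 4 of Cyfip2+/- and 2 and 4 of WT, so both genotypes held such libraries. Hippocampal, thalamic and choroid plexus markers had medians of -0.06, -0.02 and 0.06, and fibroblast and meningeal markers 0.10, with 6 of 15 within 1.3-fold.

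The difference in the week 7 cortex was then compared with that in other groups of mice by testing the interaction itself. Against the hippocampus of the same 8 mice, 0 of 17643 genes were called as differing in their response to genotype (0.0%, adjusted p below 0.05, limma), and 513 (2.91%) had an unadjusted p below 0.05. With the replicate number as a block, 0 and 760 (4.31%) did. Against the cortex at week 1, 0 of 17491 (0.0%) and 1740 (9.95%) passed, and against the cortex at week 14, 0 of 17420 (0.0%) and 619 (3.55%) passed. These tests share the week 7 cortex libraries and are not independent of each other. Against week 1, the share of true nulls estimated from the p values was 88.3%. Intervals were wider in the interactions, with a median half-width of 0.28 on the log2 scale against 0.19 in the week 7 cortex alone. A missing call therefore does not show equal responses. A model over all 48 libraries called 2 genes against week 1 and 1 gene against week 14.

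Cyfip2 itself did not differ between regions or ages beyond the error. Its log2 difference was -0.50 in the hippocampus at week 7, and the interaction was -0.07 (interval -0.20 to 0.06). Against the cortex at week 1, where it was -0.50, the interaction was -0.07 (-0.20 to 0.06), and against week 14, where it was -0.59, it was 0.02 (-0.11 to 0.15).

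The genes with the smallest p in each interaction stood short of the adjusted threshold. Between regions these were Dsp, the desmosomal protein desmoplakin, with an interaction between -1.42 and -0.57 (interval), 2310002F09Rik with -1.57 and Cdh13, T-cadherin, with 0.41. Dsp was too weakly expressed to be tested in the week 7 cortex alone, where its difference is compressed by the added 1. Cdh13 was at 2286 to 2338 in Cyfip2+/- and 1953 to 2437 in WT cortex, which overlapped, and at 1259 to 1400 against 1616 to 1868 in the hippocampus, which did not. Against week 1 they were Igfn1, Vwf and Lhx2. Vwf had an interaction of 0.68 (0.41 to 0.94), with log2 differences of 0.43 at week 7 and -0.25 at week 1. Igfn1, with 1.93, rests on week 1 values of 3.35 to 12.3 in Cyfip2+/- and 28.3 to 41.4 in WT cortex. Lhx2, a LIM homeodomain factor of cortical progenitors and upper-layer neurons, stood at -0.15 at week 7 and 0.24 at week 1, an interaction of -0.40 (-0.56 to -0.24).

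Against week 14 the genes were Efcab2 with an interaction of -0.43, Lhfpl2 with -0.78 and AI661453 with -1.74. Lhfpl2 was at 481 to 590 in Cyfip2+/- and 541 to 834 in WT cortex at week 7, and at 678 to 950 against 515 to 613 at week 14, so its difference was on opposite sides of 0 at these ages. The muscle-type genes kept their sign in the cortex. Myl4 stood at -0.69, -0.47 and -0.40 on the log2 scale at weeks 1, 7 and 14 in the cortex and at -0.10, 0.02 and -0.10 in the hippocampus. Tnnc1 stood at -0.48 and -0.47 in the cortex at weeks 7 and 14, was also below 0 there at week 1, and stood at -0.53, 0.09 and 0.11 in the hippocampus. Nefm stood at -0.20, -0.26 and -0.35 in the cortex and at -0.03, -0.10 and -0.20 in the hippocampus, and Gfap at -0.12, 0.25 and 0.16 in the cortex.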

How the data were processed

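RNA of the whole frontal cortex was sequenced by the study, and transcripts were quantified with Salmon (0.11.2 in the submitters' processing notes) and normalized with DESeq2 (1.19.11) in R 3.6.0 on GRCm38; the annotation release is not given in the sources used here. The deposited values are the authors' normalized counts, gene counts divided by size factors, used here as a signal that is comparable between libraries. Between 37.6% and 86.5% of low values were whole multiples of the step that 1 read is worth (tolerance 0.1 of a step), too few for a count test. Depth was estimated from that step. The smallest mean of a gene in the table was 4.35, so genes below it were not analysed here.

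Genes with at least 10 in at least 4 libraries were tested with limma 3.58.1 (R 4.3.3) on log2(normalized count + 1), with a trend in the prior variance and Benjamini-Hochberg adjustment over all genes tested. Differences of genes with few reads are compressed by the added 1. Within 1 region, the p values measure the spread between separate mice. Interactions were fitted over 16 libraries each. The main fit of the interaction with region took the cortex and hippocampus of a mouse as independent, and only the replicate block paired them. On simulated data from 16857 genes the test recovered 21.3%, 59.5% and 84.1% of changes of 0.25, 0.5 and 1 on the log2 scale, with 3.20% of calls false. The simulated noise was normal and independent between genes, with variances drawn from the fitted prior. These shares therefore hold under the model itself and do not measure errors in libraries that depart from it. List levels are the mean log2(normalized count + 1) of the tested members. The genes named are Cyfip2 and Cyfip1, every DEG, the 12 higher and 12 lower genes described, in each list the 3 members with the smallest p and the most abundant one, the 3 nearest tested neighbours of Cyfip2 on each side, and the 3 genes with the smallest p of each interaction. Some genes that these rules pick are not reported here. Other genes were named after their values were seen. The comparison, the lists and their members were chosen with earlier results of these data known. Gene positions and shared stretches of 31 bases come from GENCODE vM21 on GRCm38, which matched 18414 genes and missed 14. Whether counting used strand is not given in the sources used here. Both regions were taken from each mouse, but whether the same number marks the same mouse in both is not given in the sources used here. Alternatives were other scalings, filters and pseudocounts, voom weights, all 48 libraries in 1 model, a replicate block and leaving out each library.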

Additional observations from a re-analysis of the deposited data

Results flagged for a closer look

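In 142 groups of 4 libraries tested for 1 library far from the other 3, 8 were picked out, where 1 in 20, or 7.1, would be by chance. Cyfip2 in WT library 2 was at 30231, against 32460 to 32714 in the other WT libraries, and still above every Cyfip2+/- library. Plcd3 was at 387 in Cyfip2+/- library 2 and at 444 to 453 in the others. Arfgef1 was at 3214 in the same library and at 3448 to 3456 in the others. The mean log2 level of splicing regulators was 12.34 in WT library 4 and 12.36 in the other WT libraries. Cyfip2+/- library 4 stood apart on 3 lists. Its level of circadian clock genes was 11.16, against 10.91 to 10.95, its level of mitochondrial-encoded genes was 15.86, against 15.50 to 15.54, and its level of fibroblast and meningeal markers was 8.53, against 8.94 to 8.98. The total of WT library 1 was 33.7 M, against 33.1 M to 33.2 M in the other WT libraries.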

How the results depend on the processing

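Cyfip2 was a DEG in 20 of 20 alternatives, with a log2 difference from -0.60 to -0.54 and an adjusted p of at most 0.00240 by limma. The number of DEGs was 1 when every library had to reach 50, 1 with all 48 libraries in 1 model and 1 with both libraries numbered 4 left out (chosen after the data were seen), and 1 to 3 when 1 library was left out, 1 of them without Cyfip2+/- library 1 or 2. That stricter minimum and the omission of Cyfip2+/- libraries leave Gm11632 with too few values to be tested. With all 48 libraries in 1 model Gm11632 had an adjusted p of 0.809 by limma. With all 48 libraries in 1 model, 2 genes were called against week 1 (Lhx2 and Pvalb, the latter named after its value was seen) and 1 against week 14 (Lhfpl2). Genes at an unadjusted p below 0.05 numbered 632 to 1027 when 1 library was left out and 700 to 1223 in the other alternatives. The share of such genes that were higher was 45.2% in the main fit. It was 53.3% with quantile normalization and 52.6% with median-of-ratios rescaling, so the small excess of lower genes depended on the scaling. Genotype groups share replicate numbers, but only the pair numbered 4 of the 4 same-numbered pairs deviated together by over 0.1 (correlations -0.005, 0.020, 0.036 and 0.160), and with the replicate block 2 genes were DEGs. Between cortex and hippocampus, each of the 8 cortex libraries correlated best with the hippocampus library of its own number (0.0836 to 0.191), a hint from the data that numbers mark mice, and the block changed no call of the interaction with region. Of 3263 alternative values of 164 named genes, 3213 kept their direction and side of the threshold, 14 lost the call and 36 changed sign in 18 genes that were not called. Of 740 list medians recomputed, 7 moved by over 1 SD. Depth limits the genes with a mean under 100, of which 2.88% had an interval within 1.3-fold.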
